A study of Homo sapiens with 24 samples.

Results

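The Krüppel-like factors (KLF) are transcription factors, and 10 of their genes (KLF2, KLF3, KLF4, KLF5, KLF6, KLF7, KLF9, KLF10, KLF11 and KLF13) were followed here through 8 groups of ovarian cancer cells. The members were taken by gene symbol from a list that was drawn up with earlier results of these data known, by a rule that sets no measured threshold, and they are 10 of the 28277 genes that each count table holds. All 10 passed the filter on low counts in both tables. PEO1 and PEO4 are human ovarian adenocarcinoma lines of common origin, of which PEO4 is the chemotherapy-resistant one. In the A pair, untreated wild type PEO1, in which a nonsense mutation inactivates BRCA2, was compared with untreated PEO4, in which a reversion mutation restores the gene, and both were grown with added sodium pyruvate. In the B pair, PEO1 BRCA2+, a PEO1 line that regained BRCA2 through its own spontaneous reversion, and PEO4 were each left untreated or given 5 µM PDS (pyridostatin, a small molecule that binds G-quadruplexes) for 2 or 6 h. Each group had 3 libraries of polyadenylated RNA that are described as biological replicates, which makes 24 libraries. PEO4 carries the genotype label WT in both pairs, and whether the 2 PEO4 cultures differ in passage or source is not given in the labels.

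KLF proteins bind GC-rich boxes and CACCC boxes in promoters and enhancers through zinc fingers at the C-terminus that are nearly identical across the family, so that members can compete for the same sites. The N-termini differ and set whether a member activates or represses. KLF2, KLF4, KLF5, KLF6 and KLF7 are known mainly as activators that recruit acetyltransferases such as p300, although several of them also repress. KLF3 recruits the co-repressor CtBP, and KLF9, KLF10, KLF11 and KLF13 recruit the co-repressor SIN3A. In epithelia and in tumours derived from them, KLF4 is known for differentiation and cell cycle arrest and KLF5 for proliferation, and several members are early response genes with short-lived transcripts.

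Library totals lay between 32528913 and 63882077 counts in the A pair. Those of the B pair lay between 18699929 and 22375644 counts in the 6 untreated libraries and between 33260167 and 43713947 in the 12 treated ones, so that depth and treatment cannot be told apart. Ribosomal RNA genes held a larger share of counts in the untreated libraries of the B pair (0.217% to 0.474%) than in the treated ones (0.0164% to 0.0369%). The part of this share in the results was not tested. When every library was thinned to the smallest total of its table, the number of KLF genes called in each comparison did not move by more than 1.5 times. All 8 markers of ovarian carcinoma cells (such as PAX8, WT1 and EPCAM) exceeded 1 CPM in every library, with summed levels from 4848 to 14103 CPM. Of the 4 markers of endothelial cells, for which KLF2 is known, 3 stayed under 1 CPM in every library of a pair, but not the same 3. The exception was VWF in the A pair (up to 1.22 CPM) and PECAM1 in the B pair (up to 1.98 CPM). All 4 together summed to between 0.0610 and 2.72 CPM. Leukocyte markers summed to between 0.740 and 6.12 CPM, and fibroblast or stromal markers to between 2.34 and 36.7 CPM.

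Levels are given as CPM, the usual scaling of a count to the library total, with TMM factors computed within each of the tables, which were normalised separately, so that levels of the A and B pairs can be set side by side only roughly. Differences are log2 fold changes. Their p-values come from the quasi-likelihood test of edgeR, adjusted by the Benjamini-Hochberg method for the 15882 genes tested in the A pair or the 17020 in the B pair. A gene was called, and is said to have risen or fallen or to be higher or lower, where the adjusted p was under 0.05 and the log2 fold change exceeded 1 in size. In these bulk measurements, less of a transcript per cell and fewer cells that hold it cannot be told apart.

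Divided by transcript length, the summed level of the 10 genes had a higher mean in PEO4 than in PEO1 groups throughout, which was not tested. In CPM per kb of transcript the sum was 148 ± 6.04 in PEO1 and 181 ± 7.83 in PEO4 of the A pair (SD, n = 3 in every group). The sum of the B pair was 139 ± 6.64, 139 ± 1.39 and 147 ± 2.05 in PEO1 BRCA2+ at 0, 2 and 6 h of PDS, and 197 ± 14.8, 216 ± 10.1 and 196 ± 1.22 in PEO4. The sum therefore moved little with PDS, while its composition in PEO4 did not stay the same. KLF6 made up 11.0% ± 2.91 of the summed CPM per kb in untreated PEO4, 33.3% ± 0.897 at 2 h and 41.7% ± 0.241 at 6 h. In PEO1 BRCA2+ its share was 30.7% ± 2.56, 27.0% ± 0.454 and 30.0% ± 0.776. Before treatment, KLF5 (74.6 CPM per kb) and KLF10 (60.5 CPM per kb) led in PEO4 of the B pair, and at 6 h KLF6 (81.8 CPM per kb) and KLF10 (51.1 CPM per kb) did. KLF2 was the lowest of the 10 by mean CPM per kb in every group except untreated PEO4, in which KLF7 was lower (0.578 against 0.811 in the A pair and 2.36 against 2.68 in the B pair).

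**Figure D1:**
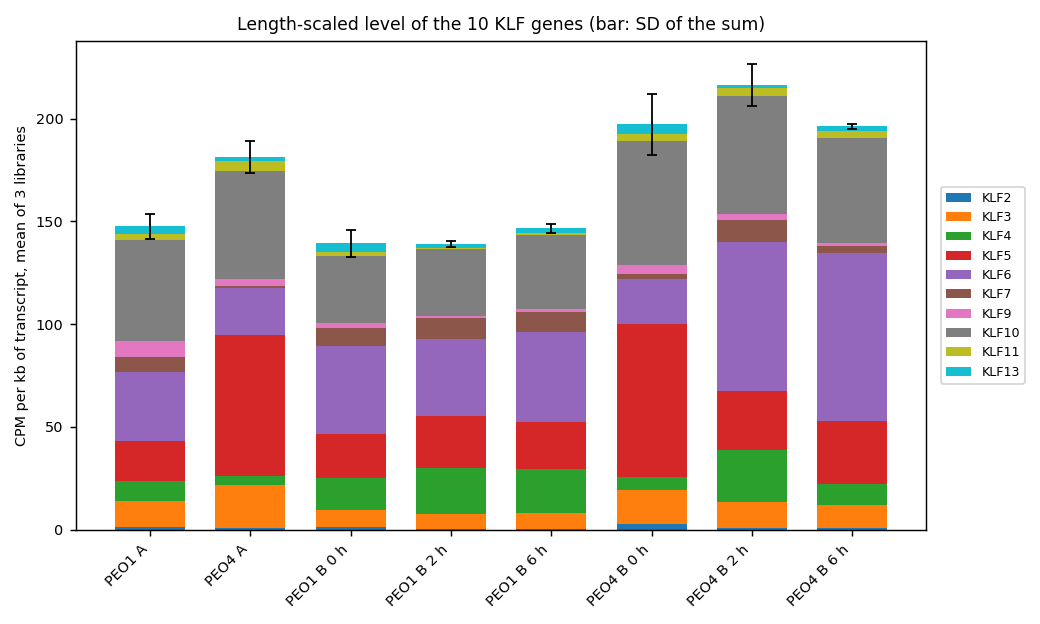
Level of the 10 KLF genes in CPM per kb of transcript, stacked, as the mean of 3 libraries in each of the 8 groups. Groups are marked A or B for the pair, and PEO1 B is PEO1 BRCA2+; bars show the SD of the sum. The KLF6 segment grows and the KLF5 segment shrinks in PEO4 under PDS, from 21.8 to 81.8 and from 74.6 to 30.8 CPM per kb at 6 h, while the stack stays near 200 CPM per kb in height (197, 216 and 196).

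**Figure D2:**
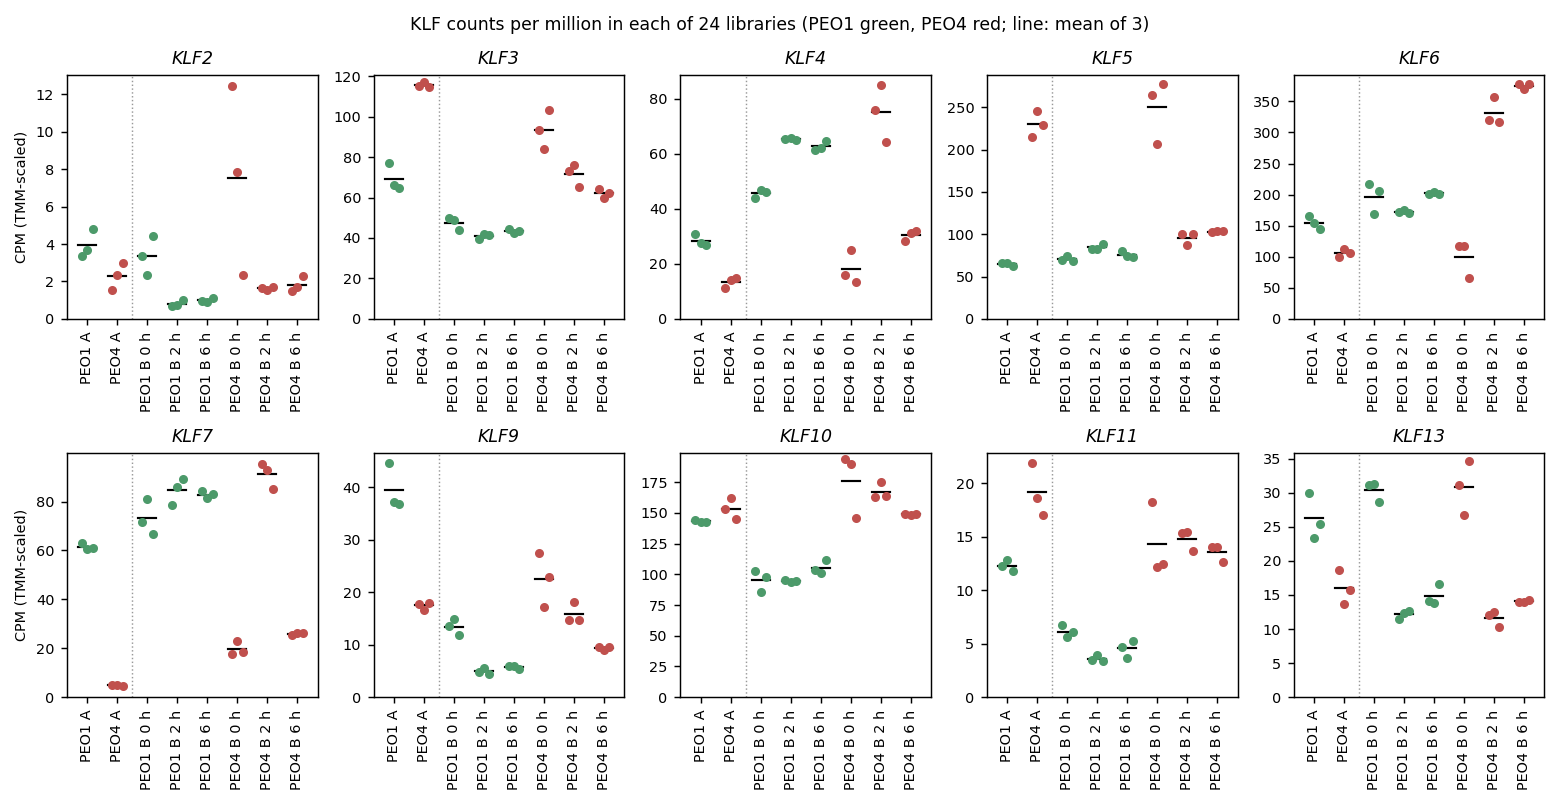
CPM of each KLF gene in each of the 24 libraries, with a panel and its own linear axis from 0 for every gene. Points are libraries, PEO1 green and PEO4 red, the short line is the mean of 3, and the dotted line parts the A pair from the B pair (PEO1 B is PEO1 BRCA2+). KLF13 drops with PDS in both lines, whereas KLF4, KLF6 and KLF7 climb in PEO4, where the PDS 2 h libraries lie above all untreated PEO4 libraries.

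The first question was which KLF genes differ between the untreated lines. In PEO4 relative to BRCA2-deficient PEO1, KLF5 was higher and KLF4, KLF7 and KLF9 were lower, which is 4 of 10 members, beside 25.8% of all genes tested in that comparison. In PEO4 relative to PEO1 BRCA2+, KLF2, KLF5 and KLF11 were higher and KLF4 and KLF7 lower, 5 of 10 members, beside 24.8% of all genes. By adjusted p alone 9 of 10 members passed in each pair, beside 61.6% and 68.6% of all genes. The libraries of the lines did not overlap for 10 of 10 members in the A pair and for 8 of 10 in the B pair, beside 67.9% and 68.5% of all genes.

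KLF7, an activator known for its role in the development of neurons and adipocytes, differed most. In the A pair the PEO1 libraries had 63.2, 60.7 and 60.8 CPM and the PEO4 libraries 5.15, 4.88 and 4.47 CPM, far apart and with little spread in either line. This was a log2 fold change of -3.66 (standard error 0.0969, edgeR adjusted p = 1.8e-11), or 12.7-fold lower in PEO4. For the B pair the PEO1 BRCA2+ libraries had 71.5, 81.2 and 66.8 CPM and the PEO4 libraries 17.8, 22.9 and 18.5 CPM, again without overlap, for a log2 fold change of -1.89 (standard error 0.0834, edgeR adjusted p = 4.1e-16). KLF4, known as a factor of epithelial differentiation and of reprogramming, was lower in PEO4 of both pairs. Its A pair libraries had 31.0, 27.5 and 26.9 CPM in PEO1 and 11.4, 14.1 and 14.8 CPM in PEO4 (log2 fold change -1.09, standard error 0.119, edgeR adjusted p = 5.0e-06). That call rests on the fold threshold, since the log2 fold change was -0.98 without PEO4 replicate 1. Its B pair libraries had 44.1, 46.9 and 46.3 CPM in PEO1 BRCA2+ and 15.9, 25.0 and 13.5 CPM in PEO4 (log2 fold change -1.35, standard error 0.160, edgeR adjusted p = 2.5e-06).

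KLF5, the proliferation-linked activator of epithelia, was higher in PEO4 by nearly the same amount in both pairs. In the A pair PEO1 libraries had 66.4, 65.7 and 63.0 CPM and PEO4 libraries 215, 246 and 229 CPM, a log2 fold change of 1.82 (standard error 0.0758, edgeR adjusted p = 9.0e-10). In the B pair PEO1 BRCA2+ libraries had 69.3, 73.9 and 68.6 CPM and PEO4 libraries 264, 207 and 278 CPM, also a log2 fold change of 1.82 (standard error 0.0808, edgeR adjusted p = 1.4e-15). Neither pair showed any overlap, and PEO4 exceeded PEO1 3.54-fold in both. KLF6, an early response activator found in most tissues, was below the fold threshold in both pairs. Its log2 fold change was -0.55 in the A pair (edgeR adjusted p = 4.8e-05) and -0.98 in the B pair (edgeR adjusted p = 0.00011). The B pair libraries had 216, 169 and 206 CPM in PEO1 BRCA2+ and 117, 117 and 65.6 CPM in PEO4, and the lowest PEO4 library stood apart from the other two. KLF6 passed the fold threshold without PEO1 BRCA2+ replicate 2 (-1.08) and without PEO4 replicate 1 (-1.11) or 2 (-1.10).

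Among the repressors, KLF9, which glucocorticoids and thyroid hormone are known to induce, lay on opposite sides in the pairs. The A pair libraries had 44.6, 37.3 and 36.9 CPM in PEO1 and 17.8, 16.7 and 17.999 CPM in PEO4, so that KLF9 was lower in PEO4 (log2 fold change -1.18, standard error 0.101, edgeR adjusted p = 5.7e-07). The B pair libraries had 13.6, 14.9 and 11.9 CPM in PEO1 BRCA2+ and 27.4, 17.2 and 23.0 CPM in PEO4, a log2 fold change of 0.75 (standard error 0.130, edgeR adjusted p = 2.2e-05) that did not reach the fold threshold. The PEO1 and PEO4 libraries were apart in both pairs, in opposite order, and the difference between the pairs was not tested because the tables were made separately. KLF11, a SIN3A-recruiting member that TGF-β induces, had 12.3, 12.8 and 11.8 CPM in PEO1 and 21.9, 18.6 and 17.1 CPM in PEO4 of the A pair (log2 fold change 0.65, edgeR adjusted p = 0.00041). It was higher in PEO4 of the B pair, at 18.2, 12.2 and 12.4 CPM against 6.71, 5.62 and 6.06 CPM (log2 fold change 1.23, standard error 0.142, edgeR adjusted p = 3.6e-08). KLF3 was under the fold threshold in both pairs, with log2 fold changes of 0.74 and 0.97, and passed it in the B pair without PEO1 BRCA2+ replicate 1 (1.01) or PEO4 replicate 2 (1.05). KLF10, the first TGF-β inducible early gene of the family, had a log2 fold change of 0.10 (95% confidence interval -0.05 to 0.25) in the A pair and 0.89 in the B pair, which became 1.01 without PEO4 replicate 3. KLF13 had -0.71 in the A pair and 0.02 (95% confidence interval -0.16 to 0.21) in the B pair.

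KLF2, known for quiescence of T cells and for the response of endothelium to flow, was scarce and variable. Its PEO1 BRCA2+ libraries in the B pair had 3.35, 2.35 and 4.43 CPM and its PEO4 libraries 12.5, 7.83 and 2.35 CPM (288, 156 and 51 counts), so the lines overlapped. The log2 fold change of 1.17 (standard error 0.416, edgeR adjusted p = 0.022) was called, but not in a fit of only the groups compared (edgeR adjusted p = 0.18). It was also lost without PEO4 replicate 1 (log2 fold change 0.59, edgeR adjusted p = 0.16), PEO4 replicate 2 (1.15, edgeR adjusted p = 0.0504), PEO1 BRCA2+ replicate 1 (1.16, edgeR adjusted p = 0.053) or PEO1 BRCA2+ replicate 2 (0.96, edgeR adjusted p = 0.087). In the A pair KLF2 had 3.37, 3.66 and 4.81 CPM in PEO1 and 1.54, 2.35 and 2.97 CPM in PEO4 (log2 fold change -0.81, edgeR adjusted p = 0.015), with no overlap between the lines. Without PEO4 replicate 3 the log2 fold change was -1.04.

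**Figure D3:**
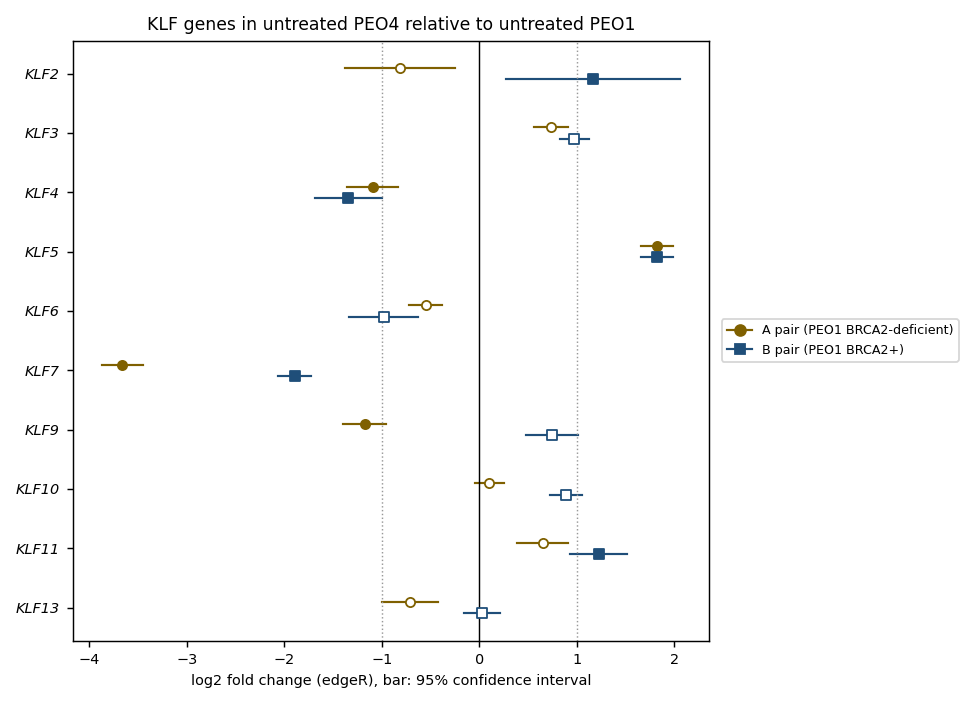
Log2 fold change of each KLF gene in untreated PEO4 relative to untreated PEO1, with its 95% confidence interval, for the A pair (circles) and the B pair (squares). Filled symbols mark called genes and dotted lines the fold threshold. KLF5 lies at 1.82 and KLF4 and KLF7 lie below -1 in both pairs, whereas KLF9 lies at -1.18 in the A pair and 0.75 in the B pair.

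The next question was how the KLF genes respond to PDS in each line. In PEO4 KLF4, KLF6 and KLF7 rose and KLF2, KLF5 and KLF13 fell at 2 h, which is 6 of 10 members, beside 17.4% of all genes tested (6.4% up and 11% down). Members known mainly as activators were thus among those that rose and among those that fell. At 6 h KLF6 was still higher than in untreated PEO4 and KLF2, KLF5, KLF9 and KLF13 were lower, 5 of 10 members, beside 22.6% of all genes (6.26% up and 16.3% down). In PEO1 BRCA2+ no member rose, and KLF2, KLF9 and KLF13 fell at 2 h (3 of 10 members, beside 7.57% of all genes, 1.18% up and 6.39% down) and at 6 h (3 of 10, beside 8.13%, 1.29% up and 6.83% down). The libraries before and after PDS did not overlap for 7 of 10 members at 2 h and 6 of 10 at 6 h in PEO1 BRCA2+, beside 61.8% of all genes at both times, and for 7 and 8 of 10 in PEO4, beside 64.2% and 72.2%. The comparisons of 2 h and of 6 h with untreated cells share the same untreated libraries. The sample titles name no vehicle control and no untreated group kept for 2 or 6 h. Effects of solvent or handling can therefore not be told apart from those of PDS. The difference in response between the lines (the interaction) was called for KLF4, KLF6 and KLF7, whose response was higher in PEO4, and for KLF5, whose response was lower there, at 2 h, 4 of 10 members beside 11% of all genes. At 6 h it was called for KLF5 and KLF6, 2 of 10 members beside 14.8% of all genes. By adjusted p alone, 8 and 6 of 10 members passed in PEO1 BRCA2+ at 2 and 6 h (52.6% and 53% of all genes) and 9 of 10 in PEO4 at 6 h (69.8%). By the same rule 5 of 10 passed between 2 and 6 h in PEO4 (60.1%) and 4 of 10 in the interaction at 6 h (47.4%).

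**Figure D4:**
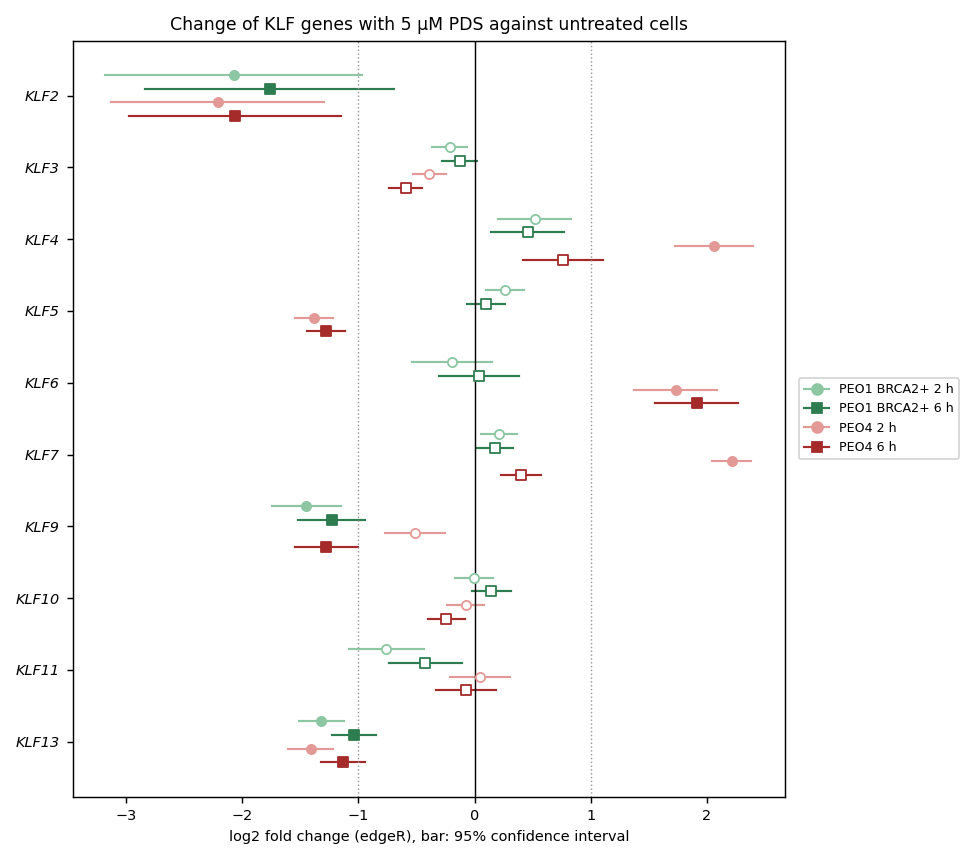
Log2 fold change of each KLF gene after 5 µM PDS relative to untreated cells of the same line, with its 95% confidence interval, at 2 h (circles) and 6 h (squares) in PEO1 BRCA2+ (green) and PEO4 (red). Filled symbols mark called genes and dotted lines the fold threshold. KLF13 lies between -1.03 and -1.41 in all 4 comparisons, whereas KLF4, KLF6 and KLF7 lie between 1.73 and 2.21 in PEO4 at 2 h and between -0.19 and 0.52 in PEO1 BRCA2+ at 2 h.

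KLF7 rose in PEO4 from 17.8, 22.9 and 18.5 CPM in the untreated libraries to 95.4, 92.9 and 85.3 CPM at 2 h, and had 25.6, 26.1 and 26.2 CPM at 6 h. The PDS 2 h libraries lay far above all others of PEO4, while the 6 h libraries lay just above the untreated ones. Its log2 fold change was 2.21 at 2 h (standard error 0.0825, edgeR adjusted p = 1.2e-16), or 4.63-fold. From 2 to 6 h KLF7 fell by 1.81 on the log2 scale (standard error 0.0778, edgeR adjusted p = 1.2e-14), which left 0.40 above untreated cells. In PEO1 BRCA2+ the libraries had 71.5, 81.2 and 66.8 CPM untreated, 78.6, 86.2 and 89.3 CPM at 2 h and 84.2, 81.3 and 83.1 CPM at 6 h. These were log2 fold changes of 0.21 and 0.18, so that PEO4 at 2 h reached the level PEO1 BRCA2+ held throughout. The interaction at 2 h was 2.00 (standard error 0.111, edgeR adjusted p = 1.5e-12).

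KLF4 followed the same course in PEO4. Its libraries had 15.9, 25.0 and 13.5 CPM untreated, 76.0, 85.2 and 64.3 CPM at 2 h and 28.5, 31.3 and 32.1 CPM at 6 h, with no overlap between the times. The log2 fold change was 2.06 at 2 h (standard error 0.157, edgeR adjusted p = 2.2e-08) and 0.76 at 6 h, and the step from 2 to 6 h was -1.30 (standard error 0.145, edgeR adjusted p = 2.1e-06). Without untreated PEO4 replicate 2, the highest of its group, the change at 6 h was 1.06 and passed the fold threshold. In PEO1 BRCA2+ KLF4 had 44.1, 46.9 and 46.3 CPM untreated, 65.5, 65.9 and 65.2 CPM at 2 h and 61.6, 62.3 and 64.6 CPM at 6 h. All treated libraries lay above the untreated ones, but the log2 fold changes of 0.52 (edgeR adjusted p = 0.0078) and 0.46 (edgeR adjusted p = 0.016) were under the fold threshold. The interaction was 1.54 at 2 h (standard error 0.213, edgeR adjusted p = 4.8e-05) and 0.31 at 6 h (95% confidence interval -0.15 to 0.77).

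KLF6 rose in PEO4 and, unlike KLF4 and KLF7, did not step down from 2 to 6 h. Its libraries had 117, 117 and 65.6 CPM untreated, 319, 356 and 317 CPM at 2 h and 378, 370.5 and 378 CPM at 6 h, so that treated libraries lay far above the untreated ones at both times. The log2 fold change was 1.73 at 2 h (standard error 0.164, edgeR adjusted p = 4.9e-07) and 1.91 at 6 h (standard error 0.165, edgeR adjusted p = 1.3e-07), and 0.18 between them (95% confidence interval -0.16 to 0.52). In PEO1 BRCA2+ KLF6 had 216, 169 and 206 CPM untreated, 172, 175 and 171 CPM at 2 h and 201, 205 and 200.4 CPM at 6 h, and treated and untreated libraries overlapped. These were log2 fold changes of -0.19 (95% confidence interval -0.53 to 0.15) and 0.04 (-0.31 to 0.38). The interaction was 1.92 at 2 h (standard error 0.228, edgeR adjusted p = 1.8e-05) and 1.87 at 6 h (standard error 0.228, edgeR adjusted p = 1.5e-05).

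The promoters of the genes that rose in PEO4 are shown because PDS binds G-quadruplexes, which form where runs of guanines follow each other closely. RefSeq windows of GRCh38.p14, from 250 bases before to 50 after an annotated start site, were given for 8 of the 10 members (13 windows). KLF3 and KLF10 had none. The motif searched was 4 runs of at least 3 G separated by loops of 1 to 7 bases, on either strand. It stood in at least 1 window of KLF2, KLF4, KLF6, KLF7 and KLF13, 5 of 8 members, beside 27.9% of the 27305 genes with a window. Counted by window it stood in 5 of 13, beside 25% of all 35116 windows. G and C made up 80.67% (KLF2), 69% (KLF4), 70.67% (KLF6), 56.67% (KLF7) and 78.33% (KLF13) of the windows with a match. The members' windows without a match ranged from 32.67% (KLF9) to 77.33% (KLF11), and the median of all windows was 58.67%. The shares of all genes and windows were not matched for this content, and its part in the counts was not tested. Of the genes that rose in PEO4 at 2 h it stood in 3 of 3 (KLF4, KLF6 and KLF7), and of those that fell in 2 of 3 (KLF2 and KLF13, not KLF5). It was in no window of KLF9 or KLF11. A match describes the letters of the window and not a folded structure or a site of PDS. The sequence before the start site of the GENCODE 44 canonical transcript follows on the strand of the gene, 5′ to 3′, for KLF4 and KLF6, which rose, and for KLF5, which fell and has no match. Capitals mark every base inside a match, as G runs for the gene's own strand and as C runs for the opposite strand. The 250 bases of KLF4 are chr9:107489770-107490019 (minus strand), in an intron of a longer KLF4 transcript. The 178 bases of KLF6 are chr10:3785282-3785459 (minus strand), upstream of all its transcripts, and the 72 bases that follow belong to an exon of a longer KLF6 transcript and are not shown. The 250 bases of KLF5 are chr13:73058755-73059004 (plus strand), in an intron of longer KLF5 transcripts. Of the KLF7 window, 238 of the 250 bases are exon of other KLF7 transcripts, so it is described without its letters.
KLF4: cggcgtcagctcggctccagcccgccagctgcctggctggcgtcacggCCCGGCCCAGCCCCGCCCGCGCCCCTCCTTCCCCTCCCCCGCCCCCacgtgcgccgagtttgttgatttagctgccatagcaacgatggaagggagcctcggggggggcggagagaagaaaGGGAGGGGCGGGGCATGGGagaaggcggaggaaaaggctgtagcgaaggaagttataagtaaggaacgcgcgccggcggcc
KLF6: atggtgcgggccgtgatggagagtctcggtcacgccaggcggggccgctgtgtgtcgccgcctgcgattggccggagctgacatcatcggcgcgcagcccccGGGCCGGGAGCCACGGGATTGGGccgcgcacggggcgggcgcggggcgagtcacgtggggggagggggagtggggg
KLF5: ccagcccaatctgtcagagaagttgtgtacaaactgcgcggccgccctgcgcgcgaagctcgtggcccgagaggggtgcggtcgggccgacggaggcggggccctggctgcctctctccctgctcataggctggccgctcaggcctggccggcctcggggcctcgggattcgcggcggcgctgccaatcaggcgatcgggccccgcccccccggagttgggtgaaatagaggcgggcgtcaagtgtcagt

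In KLF4 the 2 matching stretches, 65 bases in all, lay between positions -202 and -63 from the start site, 1 on the opposite strand and 1 on the gene's own strand. KLF6 held 1 stretch of 23 bases on the gene's own strand, from -148 to -126, and KLF7 held 2 on its own strand, 57 bases in all, between -178 and -70. Of other motifs, the GC box GGGCGG (either strand), a typical KLF and SP site, stood 4 times in the window of the canonical start site of KLF4, 2 times in those of KLF6 and KLF5 and not in that of KLF7, and it stands in 44.95% of all windows. Another KLF7 window held it 4 times. The CACCC box, in 59.87% of all windows, stood 2 times in the windows of the canonical start sites of KLF5 and KLF7. It was absent from those of KLF4 and KLF6. The AP-1 site TGACTCA, in 4.949% of all windows, stood in none of the 13 windows of the members. The other motifs searched each stood in 1 window of a member, none of them that of a canonical start site. These were the CRE TGACGTCA in KLF11 (1.848% of all windows), the CArG box in KLF7 (1.293%) and the TATA box TATAAA in KLF5 (11.53%).

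KLF5 moved against KLF4, KLF6 and KLF7 in PEO4 and fell, as did KLF2. Its libraries had 264, 207 and 278 CPM untreated, 100.4, 87.8 and 99.8 CPM at 2 h and 103, 103 and 103 CPM at 6 h, with all treated libraries below all untreated ones. The log2 fold change was -1.38 at 2 h (standard error 0.0785, edgeR adjusted p = 4.0e-13) and -1.28 at 6 h (standard error 0.0783, edgeR adjusted p = 1.0e-12). In PEO1 BRCA2+ KLF5 had 69.3, 73.9 and 68.6 CPM untreated, 82.7, 83.1 and 87.9 CPM at 2 h and 80.4, 73.8 and 72.8 CPM at 6 h, with log2 fold changes of 0.26 (edgeR adjusted p = 0.0085) and 0.10. The excess of KLF5 in PEO4 over PEO1 BRCA2+ was thus smaller after PDS, and the interaction was -1.64 at 2 h (standard error 0.112, edgeR adjusted p = 7.4e-11) and -1.38 at 6 h (standard error 0.111, edgeR adjusted p = 9.8e-10). KLF2 fell in both lines to low levels. In PEO1 BRCA2+ it had 3.35, 2.35 and 4.43 CPM untreated, 0.661, 0.724 and 1.01 CPM at 2 h and 0.976, 0.879 and 1.12 CPM at 6 h (log2 fold changes -2.07 and -1.76, edgeR adjusted p = 0.0037 and 0.0083). In PEO4 it had 12.5, 7.83 and 2.35 CPM untreated, 1.67, 1.53 and 1.70 CPM at 2 h and 1.48, 1.71 and 2.30 CPM at 6 h (log2 fold changes -2.21 and -2.06, edgeR adjusted p = 0.00038 and 0.00057). The treated libraries lay below the untreated ones in both lines, but in PEO4 only just below the lowest of them. Without untreated PEO4 replicate 1 the fall was -1.62 at 2 h and -1.46 at 6 h. The interaction of KLF2 could not be told from 0 and was loosely bounded (-0.14 at 2 h, 95% confidence interval -1.64 to 1.37).

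KLF13, a repressor known first as a late activator of RANTES in T cells, fell alike in both lines. In PEO1 BRCA2+ its libraries had 31.1, 31.3 and 28.6 CPM untreated, 11.5, 12.4 and 12.7 CPM at 2 h and 14.1, 13.8 and 16.6 CPM at 6 h. In PEO4 they had 31.1, 26.8 and 34.6 CPM untreated, 12.1, 12.5 and 10.3 CPM at 2 h and 13.9, 14.0 and 14.3 CPM at 6 h. The lines overlapped at each time, and treated and untreated libraries were apart. The log2 fold changes were -1.32 (standard error 0.0933, edgeR adjusted p = 5.3e-11) and -1.03 (standard error 0.0918, edgeR adjusted p = 1.7e-09) in PEO1 BRCA2+, and -1.41 (standard error 0.0933, edgeR adjusted p = 2.7e-12) and -1.13 (standard error 0.0921, edgeR adjusted p = 7.4e-11) in PEO4. The interaction lay at -0.09 at 2 h (95% confidence interval -0.36 to 0.18) and -0.10 at 6 h (-0.37 to 0.17). The call in PEO1 BRCA2+ at 6 h sits on the fold threshold and was lost without PDS 6 h replicate 1 (-0.99) or 2 (-0.98) and without untreated replicate 2 (-0.9998).

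KLF9 fell at both times in PEO1 BRCA2+, and in PEO4 at 6 h. The PEO1 BRCA2+ libraries had 13.6, 14.9 and 11.9 CPM untreated, 4.75, 5.51 and 4.50 CPM at 2 h and 6.02, 5.91 and 5.28 CPM at 6 h, clearly lower at both times. The log2 fold changes were -1.45 (standard error 0.142, edgeR adjusted p = 1.7e-08) and -1.23 (standard error 0.140, edgeR adjusted p = 1.3e-07). The PEO4 libraries had 27.4, 17.2 and 23.0 CPM untreated, 14.8, 18.1 and 14.7 CPM at 2 h and 9.52, 8.94 and 9.55 CPM at 6 h, so the 2 h libraries overlapped the untreated ones and the 6 h libraries lay below all others. The log2 fold change was -0.51 at 2 h (edgeR adjusted p = 0.00091) and -1.27 at 6 h (standard error 0.129, edgeR adjusted p = 6.7e-09), and -0.76 between them (edgeR adjusted p = 2.0e-05). The interaction of 0.93 at 2 h (standard error 0.189, edgeR adjusted p = 0.00042) was under the fold threshold and passed it without PDS 2 h replicate 2 (1.02) or untreated replicate 3 (1.01) of PEO1 BRCA2+ or without untreated PEO4 replicate 1 (1.09). At 6 h it was -0.04 (95% confidence interval -0.44 to 0.35).

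KLF3, KLF10 and KLF11 were called in no comparison with PDS. KLF3 had log2 fold changes of -0.22 and -0.13 in PEO1 BRCA2+ and of -0.39 and -0.59 in PEO4, and its interaction at 6 h was -0.46 (standard error 0.1001, edgeR adjusted p = 0.00048). In PEO4 it went from 93.3, 83.9 and 103 CPM untreated through 73.3, 75.9 and 65.1 CPM at 2 h to 64.3, 59.6 and 62.1 CPM at 6 h, without overlap between the times. KLF10 stayed between -0.24 and 0.15 on the log2 scale in the 4 comparisons with untreated cells, with an interaction of -0.39 at 6 h (standard error 0.111, edgeR adjusted p = 0.0061). Its PEO4 libraries had 194, 189.6 and 146 CPM untreated, 163, 175 and 164 CPM at 2 h and 149.5, 149 and 149 CPM at 6 h, within the spread of the untreated libraries. KLF11 had 6.71, 5.62 and 6.06 CPM in untreated PEO1 BRCA2+, 3.49, 3.90 and 3.40 CPM at 2 h and 4.66, 3.70 and 5.28 CPM at 6 h, all treated libraries below the untreated ones. Its log2 fold changes of -0.76 (edgeR adjusted p = 0.00024) and -0.42 (edgeR adjusted p = 0.021) were under the fold threshold. In PEO4 KLF11 had 0.05 and -0.07, and its interaction was 0.81 at 2 h (standard error 0.200, edgeR adjusted p = 0.0025), which became 1.02 without untreated PEO4 replicate 1.

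Between 2 and 6 h of PDS no member was called in PEO1 BRCA2+ (0 of 10, beside 0.17% of all genes), where 2 members had an unadjusted p under 0.05 and DESeq2 also called 0. In PEO4 KLF4 and KLF7 fell over the same interval, 2 of 10 members beside 12% of all genes. The libraries at 2 and 6 h did not overlap for 6 of 10 members in PEO1 BRCA2+ (31.3% of all genes) and 8 of 10 in PEO4 (68%). Over the 10 members, the median response to PDS (log2) was -0.20 at 2 h and -0.05 at 6 h in PEO1 BRCA2+ and -0.23 and -0.42 in PEO4, where that of all genes tested lay between -0.03 and 0. With library totals in place of TMM the median of all genes shifted to between -0.19 and -0.13 in those 4 comparisons. Over all genes in PEO4 at 6 h, that scaling gave 698 genes up and 3334 down in place of 1066 and 2782.

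**Figure D5:**
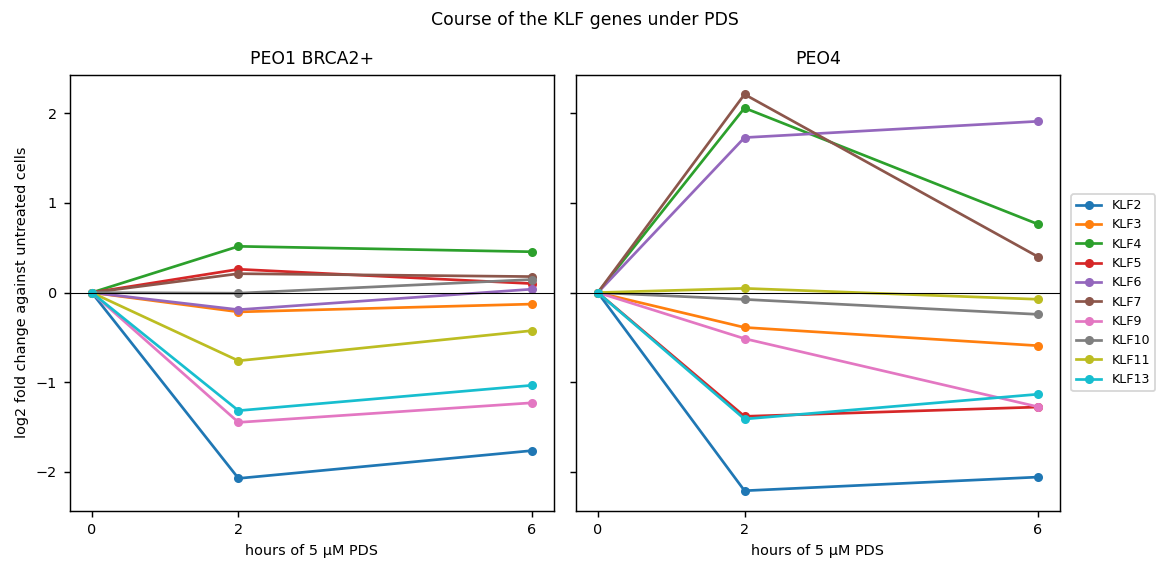
Log2 fold change of each KLF gene against untreated cells of the same line (set at 0) after 2 and 6 h of 5 µM PDS, in PEO1 BRCA2+ (left) and PEO4 (right); lines join the fitted values of a gene, and errors are given with the plot of confidence intervals. In PEO4 KLF4 and KLF7 peak at 2 h (2.06 and 2.21) and are lower at 6 h (0.76 and 0.40), whereas KLF6 stays up (1.73 and 1.91); in PEO1 BRCA2+ no line passes 0.52.

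The order of the 6 conditions of the B pair by mean CPM differed between members. For KLF4 it ran from PEO4 at 2 h (75.1 ± 10.5) through PEO1 BRCA2+ at 2 h (65.5 ± 0.351) and 6 h (62.8 ± 1.60) and untreated PEO1 BRCA2+ (45.8 ± 1.47) to PEO4 at 6 h (30.6 ± 1.91) and untreated PEO4 (18.1 ± 6.09), and only the first 2 of these overlapped with their neighbour. For KLF7 the order was the same, from 91.2 ± 5.27 to 19.7 ± 2.76, with overlap among the first 3. For KLF6 it ran from PEO4 at 6 h (375 ± 4.14) and 2 h (331 ± 22.0) to the 3 PEO1 BRCA2+ conditions, at 202 ± 2.41, 197 ± 25.0 and 172 ± 2.09, which overlapped with their neighbours, and untreated PEO4 (99.9 ± 29.6). KLF5 was highest in untreated PEO4 (249.9 ± 37.6), followed by PEO4 at 6 h (103 ± 0.335) and 2 h (96.0 ± 7.09), which overlapped with PEO1 BRCA2+ at 2 h (84.6 ± 2.94). For KLF3, KLF10 and KLF11 the means of all 3 PEO4 conditions lay above those of all 3 PEO1 BRCA2+ conditions. KLF13 was highest in both untreated groups (30.8 ± 3.95 in PEO4 and 30.3 ± 1.49 in PEO1 BRCA2+), which overlapped, and the treated groups followed at 11.6 to 14.8 CPM. KLF9 ran from untreated PEO4 (22.5 ± 5.13) to PEO1 BRCA2+ at 2 h (4.92 ± 0.522). KLF2 ran from untreated PEO4 (7.55 ± 5.07) to PEO1 BRCA2+ at 2 h (0.800 ± 0.188), and the untreated groups overlapped. The highest mean was 1.86 times the lowest for KLF10, the steadiest member in the B pair, and 9.44 times the lowest for KLF2.

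For each member, the gene whose log2 CPM ran most alike over the 18 libraries of the B pair was taken from 10254 genes, as a description, since the points share the lines and the treatment. KLF4 and KLF7 ran most like SERPINE2 (Pearson's r = 0.968 over 18 libraries) and TSPAN15 (r = 0.982), KLF6 like TRHDE (0.968), KLF5 like ZBTB46 (0.980) and KLF2 like TPBG (0.931). Among the repressors, KLF3 ran most like SLC16A5 (0.983), KLF9 like MAN2C1 (0.970), KLF10 like DNM3 (0.967), KLF11 like ZNF208 (0.981) and KLF13 like HERC2P2 (0.975).

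Of the 7 other KLF genes, 4 passed the filter, and KLF1, KLF14 and KLF17 had at most 7 counts in any library. KLF8, a CtBP-recruiting repressor like KLF3, was lower in untreated PEO4 in both pairs, at 3.25 ± 0.527 against 9.16 ± 0.647 CPM in the A pair (log2 fold change -1.501, edgeR adjusted p = 5.4e-06) and 0.647 ± 0.200 against 2.57 ± 0.494 CPM in the B pair (log2 fold change -1.98, edgeR adjusted p = 2.2e-07). No other KLF gene of this list was called in either untreated comparison. At 6 h of PDS, 2 of 4 fell in PEO1 BRCA2+ and 1 of 4 in PEO4. KLF12, also a CtBP-recruiting repressor, fell in PEO1 BRCA2+ (log2 fold change -1.17, edgeR adjusted p = 2.8e-06, or -0.98 without PDS 6 h replicate 2). KLF15 was called in both lines at very few counts, 5 to 10 untreated against 2 to 6 in PEO1 BRCA2+ and 5 to 9 against 2 to 3 in PEO4. Its log2 fold changes were -1.57 (edgeR adjusted p = 0.035) and -2.26 (edgeR adjusted p = 0.0047). The call in PEO1 BRCA2+ was lost with DESeq2 (adjusted p = 0.050018) and without PDS 6 h replicate 1 or 3 or untreated replicate 1 or 2 (edgeR adjusted p between 0.074 and 0.14). In both lines KLF15 was not tested under 3 of the alternatives, among them the thinned libraries. Of the SP genes, relatives of the KLF family that bind the same GC boxes, 7 of 9 passed the filter. In the A pair 2 of 7 were lower in PEO4 and none higher, SP8 (log2 fold change -1.62, edgeR adjusted p = 0.0029) and SP5 (-1.35, edgeR adjusted p = 0.0053). SP5, a WNT-responsive member, was also lower in PEO4 of the B pair (1 of 7 genes, log2 fold change -1.39, edgeR adjusted p = 1.9e-05) and fell in PEO1 BRCA2+ at 6 h (1 of 7, -1.40, edgeR adjusted p = 1.5e-05). SP6 fell in PEO4 at 6 h (1 of 7, -1.51, edgeR adjusted p = 3.3e-06).

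All 9 co-regulators on the list (SIN3, HDAC, CTBP and acetyltransferase genes) were tested. With PDS, 1 of 9 was called in PEO4 at 2 h and none in PEO4 at 6 h or in PEO1 BRCA2+ at either time. That gene, CREBBP, an acetyltransferase close to p300, is named after its value was seen. It fell by 1.02 on the log2 scale (edgeR adjusted p = 4.8e-11), a value under the fold threshold without PDS 2 h replicate 2 (-0.95) or untreated replicate 2 (-0.98) and with no filter on low counts (-0.997). Between untreated lines HDAC1, a deacetylase of the SIN3 complex, was higher in PEO4 of the A pair (1 of 9, log2 fold change 1.03, edgeR adjusted p = 1.6e-07, or 0.97 without PEO4 replicate 1). KAT2B, an acetyltransferase, was lower in PEO4 of the B pair (1 of 9, log2 fold change -1.03, edgeR adjusted p = 1.4e-06), and that call was lost without PEO4 replicate 2 (-0.86) or PEO1 BRCA2+ replicate 1 (-0.96) and in the thinned libraries (-0.96). Of the 10 genes of the pathways that induce KLF genes or degrade their proteins, 2 were lower in PEO4 of the A pair and 1 was higher and 1 lower in the B pair. MEF2C, through which ERK5 induces KLF2 and KLF4, was lower in PEO4 of both pairs (log2 fold changes -2.63 and -1.82, edgeR adjusted p = 5.3e-07 and 3.5e-09). At 6 h MEF2C had 7.01 ± 0.785 CPM in PEO4 against 3.30 ± 1.18 untreated (1 of 10 genes called, log2 fold change 1.09, edgeR adjusted p = 8.9e-06), which was under the fold threshold with library totals (0.94), with upper-quartile scaling (0.98) and without untreated PEO4 replicate 3 (0.87). TGFB1, whose product induces KLF10 and KLF11, lay on opposite sides in the pairs, lower in PEO4 of the A pair (log2 fold change -1.98, edgeR adjusted p = 8.7e-10) and higher in that of the B pair (1.10, edgeR adjusted p = 2.2e-11, or 0.99 without PEO1 BRCA2+ replicate 1). No gene of this list was called in PEO1 BRCA2+ at 6 h.

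Of 7 genes of the glucocorticoid receptor and its targets, to which KLF9 belongs, 6 were tested. SGK1, a kinase, was lower in PEO4 of both pairs (log2 fold changes -4.65 and -2.34, edgeR adjusted p = 4.7e-11 and 3.5e-05) and rose in PEO4 at 6 h (1.96, edgeR adjusted p = 0.00015). Its untreated PEO4 libraries of the B pair held 71 to 325 counts, a wide spread, and without replicate 2 of them the values were -3.06 between the lines and 2.69 at 6 h. FKBP5, a co-chaperone of the receptor, was higher in PEO4 of the A pair (1.21, edgeR adjusted p = 1.8e-05), so that 1 gene of 6 was higher and 1 lower there. In the B pair 2 were higher and 1 lower, among them DUSP1, a phosphatase of MAP kinases, at 1.60 (edgeR adjusted p = 0.0013, or 0.062 with only the groups compared). DUSP1 fell with PDS at 6 h in PEO1 BRCA2+ (1 of 6 genes, -1.19, edgeR adjusted p = 0.014, or 0.0503 without untreated replicate 1) and in PEO4 (-2.89, edgeR adjusted p = 1.3e-05), where 1 of 6 rose and 1 fell. Of the 16 genes described as KLF targets, 15 were tested in the A pair (3 higher and 4 lower in PEO4) and 14 in the B pair (2 higher and 4 lower). At 6 h of PDS 2 of 14 rose and 1 fell in PEO1 BRCA2+, and 2 rose and 5 fell in PEO4. S1PR1, a KLF2 target that guides lymphocyte exit, held 1338 to 2419 counts in PEO1 and at most 2 in PEO4 of the A pair. In the B pair it had 29.4 ± 2.99 CPM in PEO1 BRCA2+ and 2 to 5 counts per library in PEO4, and at 6 h of PDS it fell in PEO1 BRCA2+ (log2 fold change -1.35, edgeR adjusted p = 1.1e-09) and had 87 to 117 counts in PEO4 (4.18, edgeR adjusted p = 2.9e-11). ALPI, an intestinal phosphatase, had 116 to 252 counts in PEO4 of the A pair and 0 in every other group. PDGFA, a growth factor, was lower in PEO4 of the B pair (-3.30, edgeR adjusted p = 1.4e-14) and fell further at 6 h (-2.08, edgeR adjusted p = 1.1e-06). It held only 22 to 33 counts per library in untreated PEO4 of that pair and 8 to 12 at 6 h. IVL, a protein of the cornified envelope, rose in PEO1 BRCA2+ at 6 h (1.19, edgeR adjusted p = 0.00015).

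Some calls of these lists at 2 h of PDS fall outside the rule for named genes, and their names were added after the values were seen. In PEO1 BRCA2+ 1 of 4 other KLF genes (KLF15), 1 of 7 SP genes (SP5) and 1 of 6 glucocorticoid receptor genes (DUSP1) fell, no co-regulator or inducing pathway gene was called, and of 14 described targets 2 rose (IVL and CDKN1A) and 1 fell (S1PR1). The call of KLF15 there (log2 fold change -1.57, edgeR adjusted p = 0.035) was lost by p without PDS 2 h replicate 1 or 2 or untreated replicate 1 or 2 (edgeR adjusted p = 0.060, 0.18, 0.076 and 0.14) and with DESeq2 (adjusted p = 0.054). IVL (1.10) came under the fold threshold without untreated replicate 2 (0.98) and with library totals in place of TMM (0.96). CDKN1A (1.04) came under it without PDS 2 h replicate 1 (0.995) or untreated replicate 2 (0.99) and with library totals (0.89) or upper-quartile scaling (0.96). In PEO4 none of the 4 other KLF genes was called, 2 of 7 SP genes fell (SP5 and SP6), 1 of 10 inducing pathway genes rose (MEF2C), 1 of 6 glucocorticoid receptor genes rose (SGK1) and 1 fell (DUSP1), and of 14 described targets 1 rose (S1PR1) and 3 fell (PDGFA, KRT4 and IVL). The value of PDGFA was -3.41 with all libraries and -4.51 without PDS 2 h replicate 2, and that of SGK1 was 1.70 and 2.43 without untreated replicate 2. PDGFA held only 1 to 9 counts per library in PEO4 at 2 h. Between 2 and 6 h no gene of the 6 lists was called in PEO1 BRCA2+. In PEO4 2 of 4 other KLF genes, 1 of 6 glucocorticoid receptor genes and 2 of 14 described targets fell over that interval, and 1 of 7 SP genes and 2 of 14 described targets rose.

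Some genes share sequence with the members, and whether the counting used strand is not given in the sources used here, so that their reads cannot be told apart where they overlap. KLF3 overlaps the antisense gene KLF3-AS1, which had 12.8 ± 0.941 CPM in untreated PEO4 of the B pair, 3.99 ± 0.329 at 2 h of PDS and 4.03 ± 0.841 at 6 h. KLF7 overlaps the antisense gene MYOSLID, at 0.710 ± 0.342, 1.30 ± 0.0758 and 1.52 ± 0.346 CPM in the same groups, and the microRNA genes MIR2355 and MIR7845. Other overlapping genes are not among the genes counted. They are antisense non-coding RNA genes at KLF4, KLF7 and KLF11, and on the same strand KLF7-IT1 at KLF7 and the pseudogene UBE2CP4 at KLF13. The part of all these genes in the values of KLF3, KLF4, KLF7, KLF11 and KLF13 was not tested.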

How the data were processed

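RNA-seq gene counts of 24 libraries in 8 groups were used. Per the submitters' processing notes, reads were handled with FastQC, fastp, STAR and featureCounts on hg38; versions, annotation and strand setting are not given in the sources used here. The authors deposited these values as raw counts in 2 tables of 28277 genes, 6 libraries in the A pair and 18 in the B pair; 2 and 1 lines without readable counts were left out.

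Each table was fitted on its own with the robust quasi-likelihood test of edgeR 4.0.16 in R 4.3.3 (group means, TMM, filterByExpr with a minimum count of 10), which left 15882 and 17020 genes and 4 and 12 residual degrees of freedom. All 18 libraries of the B pair shared 1 fit. Called genes had an adjusted p under 0.05 and a log2 fold change over 1 in size. Standard errors were derived from the log2 fold change and the F statistic of its test, and 95% confidence intervals from these with the t distribution. Replicate libraries of a group differed by more than sampling noise (chi-square per degree of freedom of at least 2.06 in 24 pairs). Levels per kb use the length of the GENCODE 44 canonical transcript. Promoter windows come from RefSeq (GRCh38.p14). DESeq2 1.42.0 was an alternative, libraries were thinned binomially with seed 7, and the fits were tested on simulated data. Python 3.11.15, pandas 2.3.3 and matplotlib 3.10.9 made tables and plots.

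The members and gene lists were chosen with earlier results of these data known. The genes named are the members, in each list at most 2 called genes with the largest change in each untreated comparison and in each line at 6 h of PDS, and the gene most alike to each member over the 18 libraries. List genes called at 2 h of PDS outside this rule were named after their values were seen. The alternatives were other scalings, filters and tests, a fit of only the groups compared, adjusted p alone, thinned libraries, a replicate block and leaving out each library.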

Additional observations from a re-analysis of the deposited data

Results flagged for a closer look

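Responses to PDS that differed between PEO4 and PEO1 BRCA2+ by the interaction test of edgeR (adjusted p under 0.05, whatever the size) are listed here, as the log2 response of PEO4 minus that of PEO1 BRCA2+. At 2 h the difference was 1.54 for KLF4, 1.92 for KLF6 and 2.00 for KLF7, the 3 members that rose in PEO4 at that time. It was -1.64 for KLF5, which fell in PEO4 and had a log2 fold change of 0.26 in PEO1 BRCA2+. It was 0.93 for KLF9 and 0.81 for KLF11, both under the fold threshold, and in both genes the PEO1 BRCA2+ libraries had the lower log2 fold change. At 6 h the difference was 1.87 for KLF6 and -1.38 for KLF5, and under the fold threshold -0.46 for KLF3 and -0.39 for KLF10. The interactions at 2 and 6 h share the untreated libraries.

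KLF9 differed between the untreated lines in opposite directions, with a log2 fold change (PEO4 minus PEO1) of -1.18 in the A pair and 0.75 in the B pair. All PEO4 libraries lay below all PEO1 libraries in the A pair and above them in the B pair. The difference between the pairs was not tested. The A pair differs from the B pair in the PEO1 line, in the medium and in the table, which cannot be told apart.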

How the results depend on the processing

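The number of KLF genes called moved by over 1.5 times under 1 alternative, adjusted p alone with no fold threshold, as its construction lets in smaller changes. It then stood at 9 of 10 in the A pair, 9 in the B pair, 8 and 6 in PEO1 BRCA2+ at 2 and 6 h, 9 in PEO4 at 6 h, 5 in PEO4 between 2 and 6 h and 4 in the interaction at 6 h. Leaving out 1 library gave 3 to 5 calls in the A pair, 5 to 6 in the B pair, 3 to 3 and 2 to 3 in PEO1 BRCA2+ at 2 and 6 h and 0 to 0 between them, 6 to 6 and 5 to 6 in PEO4 and 2 to 2 between them, and 4 to 6 and 2 to 2 in the interactions. Replicate numbers did not pair the libraries (same-numbered libraries deviated together with correlations from -0.185 to 0.160, 1 of 24 over 0.1). With a replicate block the counts were 4 and 5 between the untreated lines, 3 and 3 in PEO1 BRCA2+ and 0 between its times, 6 and 5 in PEO4 and 2 between its times, and 4 and 2 in the interactions, the numbers called without it.

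Of the members' log2 fold changes, 64 passed the adjusted p, and none of them changed sign under any alternative: 1024 values stayed on the same side of the threshold, 42 moved past it and 9 fell short of it. The 42 came from 30 fold changes, each of which adjusted p alone moves past the threshold by construction. Fold changes already called stay called under that alternative, also by construction. The 36 others changed sign in 26 of 635 values and were called in none. KLF2, KLF15 of the other KLF genes and, in PEO4, PDGFA were measured on few counts, which limits their precision. The same holds for KLF8 in untreated PEO4 of the B pair, at 10 to 19 counts per library. It also holds for SP5 in untreated PEO4, at 12 to 34 counts in the A pair and 26 to 37 in the B pair.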
